A study of Arabidopsis thaliana with 36 samples.

Results

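A set of 80 Arabidopsis thaliana genes was chosen by measured values. Their RNA levels were lower in shoots of seedlings at 27 °C than at 21 °C, and their levels in roots hardly differed. Reads per gene were scaled to CPM, the reads of a gene per 1000000 gene reads of its library, and for each genotype and organ L was the log2 of (mean CPM at 27 °C + 1) over (mean CPM at 21 °C + 1). Of 32833 genes counted, 14337 had a mean of at least 3 CPM over the 18 root libraries and over the 18 shoot libraries, and 7063 of these had all 3 root L values between -0.3 and 0.3. The members were the 80 of these with the lowest value of the highest of their 3 shoot L values, so rank 1 is the gene whose weakest difference among the genotypes was the most negative. The temperature differences below therefore describe the selection and carry no test.

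The libraries came from roots and from shoots of seedlings taken 6 days after germination, of 3 genotypes (wild type Col-0 and the mutants hy5 and phyAB). Each genotype was sampled at 21 °C and at 27 °C, with 3 libraries in each of 12 groups. Light lasted 16 h per day, followed by 8 h of darkness at 15 °C or at 21 °C. The labels place a shift after the first 3 days, so the seedlings were not at 27 °C throughout. They give the time at the higher temperature both as 4 h and as 3 days, so its length is not known here. They name no alleles and do not say whether libraries of a group came from separate cultures, so that p-values measure the spread between these samples, which may be technical. HY5 is a bZIP transcription factor that promotes light-regulated growth, and PHYA and PHYB encode phytochromes A and B, the red and far-red light receptors, of which phytochrome B also responds to temperature.

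As background, warm growth speeds the elongation of hypocotyls and petioles, and plants at lower temperature tend to hold more starch and soluble sugars. Chloroplasts import most of their proteins from the nucleus, and some of the RNA-binding proteins, translation factors and chaperones among these are needed for chloroplast gene expression in the cold. Vitamin B6 is made by the paired enzymes PDX1 and PDX2, and ascorbate is made from GDP-mannose. Genes of all of these processes were among the members.

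Libraries held 14810514 to 24006279 gene reads in roots and 17008543 to 23880472 in shoots. The 12 shoot markers, photosynthesis genes such as RBCS1A and LHCB1.1, summed to between 77508 and 97676 CPM in shoots and between 44.4 and 819 CPM in roots, and none of the 12 was at 0 in any library. The 12 root markers, among them CASP1 and RHD6, summed to 683 to 1041 CPM in roots and 64.3 to 124 CPM in shoots, where COBL9, EXPA7 and NRT2.1 were at 0 in 1, 4 and 2 libraries. Replicate 3 of the phyAB roots at both temperatures has a title and tissue label of root and a source name of shoot. Both libraries had root marker sums of 857 and 880 CPM and shoot marker sums of 127 and 219 CPM, as the other roots did, and they were used as roots. Replicate 3 of the shoots at 27 °C had 27.8% (Col-0), 34.6% (hy5) and 28.8% (phyAB) of its reads mapped to more than 1 place, against 8.29% to 16.5% in the other shoots. Seed storage genes summed to between 207 and 2372 CPM in phyAB shoots and to at most 6.98 CPM in the other shoots.

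In shoots the median L of the 80 genes was -0.86 in Col-0 and, in the mutants, -0.77 (hy5) and -0.70 (phyAB), which are levels at 27 °C of 0.550, 0.587 and 0.614 times those at 21 °C. Over the 14337 genes above the CPM minimum the same medians were 0.00, 0.02 and -0.02. In roots the median L of the members was -0.07 in Col-0 and, in the mutants, 0.02 (hy5) and -0.02 (phyAB), inside the limits that the selection set. Over the 14337 genes the root medians were 0.07, 0.08 and 0.05. Over the 7063 genes inside the same root limits they were 0.03, 0.03 and 0.01. The selection used these root values, so no difference from other genes is read from them. L was below -1 for 22 members in Col-0 shoots, 13 in hy5 shoots and 11 in phyAB shoots. The lowest values were -2.02 for APL3 in Col-0, -1.78 for PHS2 in hy5 and -1.58 for SVR3 in phyAB. Summed over the 80 genes, shoots held 11780 to 12828 CPM in Col-0 at 21 °C and 6611 to 6813 CPM at 27 °C, while Col-0 roots held 11177 to 11583 CPM and 10495 to 10763 CPM.

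All 3 shoot libraries at 27 °C lay below all 3 at 21 °C for 80 of 80 members in Col-0 and, in the mutants, 79 (hy5) and 77 (phyAB). The background shares among the 14337 genes were 30.0%, 27.7% and 30.8%, and the selection used these values. In all 3 genotypes at once this was so for 76 members, against 19% of the background. The 4 exceptions were CYP705A5, AT5G35735 and GLR3.5, whose phyAB shoot libraries overlapped, and AT4G30660, whose hy5 shoot libraries overlapped. In roots the 27 °C libraries lay below those at 21 °C without overlap for 20 members in Col-0 and, in the mutants, 11 (hy5) and 14 (phyAB), where the background shares were 23.8%, 23.9% and 22.2%. The shoot difference was smallest in phyAB for 43 of the 80 genes, in hy5 for 22 and in Col-0 for 15. It was largest in Col-0 for 41 genes, in phyAB for 24 and in hy5 for 15. The selection ranked genes on these same shoot values, and such counts were not taken over all genes. Nothing about the genotypes is therefore read from them.

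**Figure D1:**
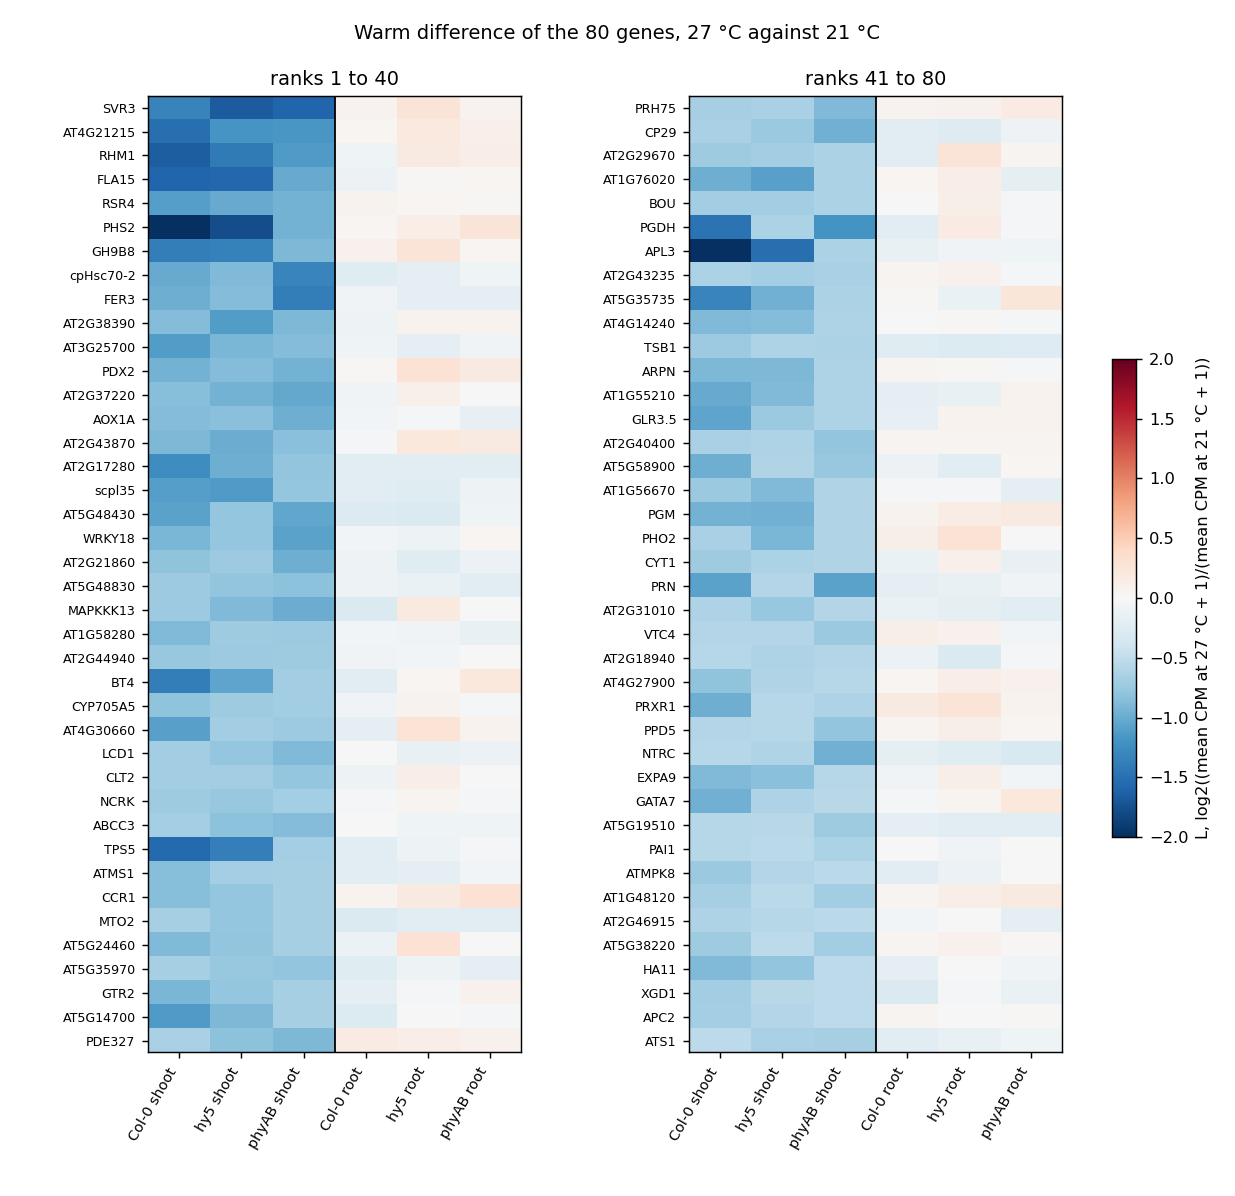
Warm difference L of each of the 80 genes (rows, in rank order) in shoots and roots of the 3 genotypes (columns), where blue is lower at 27 °C, red is higher and each cell compares means of 3 libraries. The 3 shoot columns are blue throughout, with medians of -0.86, -0.77 and -0.70, and the 3 root columns are pale because root L was required to lie within 0.3 of 0.

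At the lower end of the ranking, members and non-members differed little. Ranks 78 to 80, XGD1, APC2 and ATS1, had highest shoot L values of -0.53, -0.52 and -0.52. Ranks 81 to 83, AT3G25610, AT4G32920 and TAA1, had -0.51, -0.51 and -0.51 and were left out.

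Starch and sugar phosphate genes included APL3, with the lowest L of all members in Col-0 shoots (-2.02). PHS2 was at -1.99, TPS5 at -1.56 and PGM at -0.95. The 4 members in this role, grouped after the values were known, were PHS2, the cytosolic alpha-glucan phosphorylase that acts on sugars from starch breakdown, APL3, a large subunit of ADP-glucose pyrophosphorylase that makes the substrate of starch synthesis, PGM, the plastid phosphoglucomutase, and TPS5, a class II trehalose phosphate synthase-like protein. Their median shoot L was -1.78 in Col-0 and, in the mutants, -1.44 (hy5) and -0.65 (phyAB). Shoot levels of PHS2 in Col-0 were 158, 243 and 251 CPM at 21 °C and 36.9, 49.5 and 75.5 CPM at 27 °C. In hy5 shoots PHS2 was at 193, 256 and 408 CPM at 21 °C and 65.5, 73.96 and 109 CPM at 27 °C. The phyAB shoots held PHS2 at 119, 155 and 202 CPM at 21 °C and 59.6, 81.5 and 105 CPM at 27 °C. No library at 27 °C reached the lowest one at 21 °C of its genotype, and replicate 3 was the highest of each group of 3 shoots. Col-0 roots had PHS2 at 24.4, 31.4 and 31.7 CPM at 21 °C and 26.8, 31.9 and 31.2 CPM at 27 °C. In hy5 roots PHS2 stood at 14.2, 19.7 and 24.5 CPM at 21 °C and 19.2, 20.5 and 24.4 CPM at 27 °C. In phyAB roots PHS2 was at 15.2, 20.04 and 22.8 CPM at 21 °C and 22.1, 21.7 and 25.99 CPM at 27 °C. Root libraries at 21 °C and 27 °C overlapped in all 3 genotypes. Mean shoot CPM of APL3 was 42.2 ± 6.84 (SD, n = 3) at 21 °C and 9.62 ± 3.06 at 27 °C in Col-0, and 25.5 ± 3.89 and 16.1 ± 0.527 in phyAB. In roots APL3 stayed between group means of 7.47 and 12.3 CPM. TPS5 in Col-0 shoots averaged 53.7 ± 5.82 CPM at 21 °C and 17.5 ± 3.56 at 27 °C, and in phyAB shoots 31.8 ± 3.65 and 19.6 ± 0.559. PGM in Col-0 shoots averaged 178 ± 18.6 CPM at 21 °C and 91.9 ± 7.01 at 27 °C, and in Col-0 roots 22.1 ± 1.44 and 23.2 ± 1.44.

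The wider families of these genes, listed after the members were seen and so given with no test, did not move as one. Of the 7 class II trehalose phosphate synthase genes, TPS5 was the one with lower means at 27 °C in shoots of all 3 genotypes. TPS8 had a shoot L of 1.61 in Col-0 and, in the mutants, 1.62 (hy5) and 0.81 (phyAB), and TPS11 had 1.83, 1.53 and 0.65. Of 28 genes of starch synthesis and breakdown, 3 were members and 22 others were above the CPM minimum in both organs. Of these 22, 10 had lower mean shoot levels at 27 °C in all 3 genotypes (45.5%), beside 37.1% of the 14257 genes above the minimum that were no members, and nothing particular to starch genes is read from this. GBSS1, the granule-bound starch synthase, had a shoot L of -1.84, -1.37 and -0.81 in Col-0, hy5 and phyAB but missed the CPM minimum in roots. ISA3, a debranching enzyme, had -1.22, -0.74 and -0.07, and SS4, a starch synthase, had 0.01, 0.10 and 0.18.

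**Figure D2:**
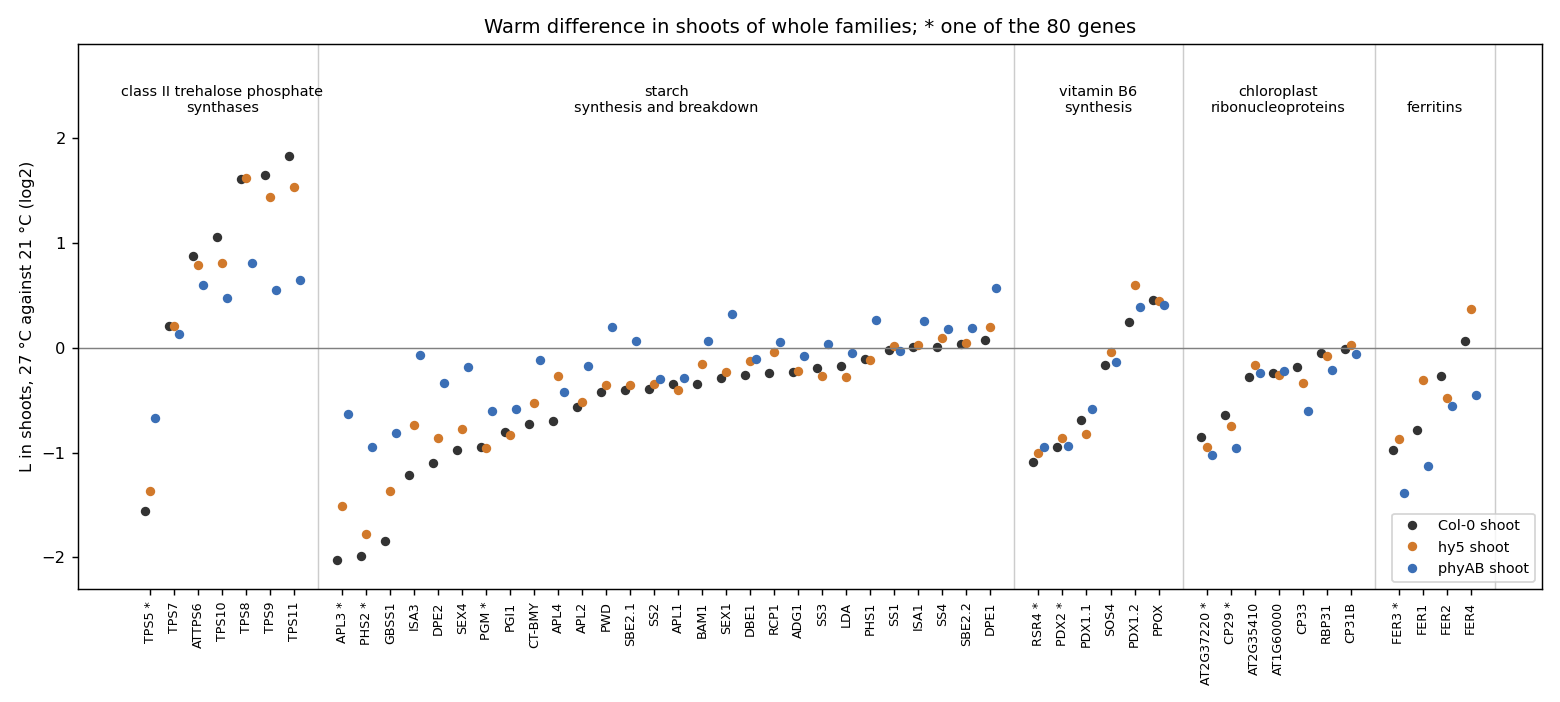
Warm difference L in shoots (y axis, log2) for each gene of 5 families, in Col-0 (black), hy5 (orange) and phyAB (blue), where an asterisk marks one of the 80 genes. TPS5 lies at -1.56 in Col-0 while the other class II trehalose phosphate synthases lie above 0, and the lowest starch genes are APL3 at -2.02 and PHS2 at -1.99.

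A group of 11 members, made after the values were known, held nuclear genes for chloroplast proteins that were given no other role. Other members with plastid products, such as APL3, PGM, MTO2, TSB1 and FER3, are described under starch, amino acids and iron. The 11 genes had a median shoot L of -0.66 in Col-0 and, in the mutants, -0.74 (hy5) and -0.95 (phyAB). SVR3, rank 1, encodes a chloroplast translation elongation factor of the TypA type. Shoot levels of SVR3 in Col-0 were 735, 750.1 and 562 CPM at 21 °C and 290.4, 268 and 246 CPM at 27 °C. In hy5 shoots SVR3 was at 577, 622 and 607 CPM at 21 °C and 194, 190.4 and 182 CPM at 27 °C. The phyAB shoots held SVR3 at 565, 582 and 561 CPM at 21 °C and 198, 179.8 and 191 CPM at 27 °C. Within each genotype the 6 libraries formed 2 separate groups, and the 27 °C level in Col-0 was above that in both mutants. In Col-0 roots SVR3 was at 64.6, 63.9 and 66.3 CPM at 21 °C and 71.6, 66.9 and 66.3 CPM at 27 °C. The hy5 roots gave SVR3 at 32.3, 33.2 and 32.3 CPM at 21 °C and 39.6, 38.5 and 39.99 CPM at 27 °C. For SVR3 the phyAB roots gave 41.6, 46.8 and 44.6 CPM at 21 °C and 45.3, 49.7 and 44.1 CPM at 27 °C. The root libraries of Col-0 lay above those of hy5 and phyAB at both temperatures. For SVR3 L was -1.34 in Col-0 and, in the mutants, -1.67 (hy5) and -1.58 (phyAB), all in shoots.

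The stromal chaperone gene cpHsc70-2 had its largest shoot difference in phyAB. cpHsc70-2 was counted in Col-0 shoots at 823, 847 and 633 CPM at 21 °C and 394, 378 and 373 CPM at 27 °C. For cpHsc70-2 the hy5 shoots gave 766, 805 and 808 CPM at 21 °C and 443, 431 and 418 CPM at 27 °C. Levels of cpHsc70-2 in phyAB shoots were 615, 556 and 567 CPM at 21 °C and 246, 208 and 239 CPM at 27 °C. All 9 shoot libraries at 27 °C were below all 9 at 21 °C. Root levels of cpHsc70-2 in Col-0 were 183, 185 and 163 CPM at 21 °C and 158, 149.8 and 141 CPM at 27 °C. For cpHsc70-2 the hy5 roots had 165, 165 and 159 CPM at 21 °C and 146, 138 and 142 CPM at 27 °C. Levels of cpHsc70-2 in phyAB roots were 152, 120.2 and 142 CPM at 21 °C and 129, 127 and 132 CPM at 27 °C. In Col-0 and hy5 roots the libraries at 27 °C were also the lower ones without overlap, by less than the root limit of the selection. Of 7 chloroplast ribonucleoprotein genes, whose products bind and stabilise chloroplast RNA, CP29 and AT2G37220 were members, and their shoot L was -0.64 and -0.85 in Col-0 and -0.95 and -1.02 in phyAB. This family was also listed after the members were seen and carries no test. Of its 4 other genes above the CPM minimum in both organs, 3 had lower mean shoot levels at 27 °C in all 3 genotypes. That is 75%, beside 37.1% of all genes above the minimum that were no members. RBP31, 1 of these 3, had -0.05, -0.07 and -0.22 in Col-0, hy5 and phyAB, and CP33 had -0.18, -0.34 and -0.61. NTRC, the plastid NADPH-dependent thioredoxin reductase, had -0.57, -0.59 and -0.95.

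Vitamin genes gave differences of much the same size in the 3 genotypes. RSR4, also known as PDX1.3, and PDX2 encode the partner subunits that make the active form of vitamin B6. In Col-0 shoots RSR4 stood at 294, 303 and 223 CPM at 21 °C and 139, 128 and 116 CPM at 27 °C. The hy5 shoots had RSR4 at 300.3, 294 and 271 CPM at 21 °C and 149.8, 144 and 137 CPM at 27 °C. In phyAB shoots RSR4 stood at 213, 232 and 203 CPM at 21 °C and 117, 105 and 113 CPM at 27 °C. The higher replicates differed between the groups, and no 27 °C library reached a 21 °C library of its genotype. Col-0 roots had RSR4 at 68.97, 70.4 and 66.1 CPM at 21 °C and 69.8, 70.4 and 76.3 CPM at 27 °C. In hy5 roots RSR4 stood at 50.5, 52.4 and 51.7 CPM at 21 °C and 51.3, 52.5 and 54.9 CPM at 27 °C. In phyAB roots RSR4 was at 48.3, 52.00 and 49.4 CPM at 21 °C and 48.5, 52.2 and 51.7 CPM at 27 °C. For RSR4 L was -1.09 in Col-0 and, in the mutants, -1.001 (hy5) and -0.95 (phyAB), all in shoots, and for PDX2 it was -0.94, -0.86 and -0.94. Among the other vitamin B6 genes PDX1.1 had -0.69, -0.82 and -0.59, whereas PDX1.2, a non-catalytic relative, had 0.24, 0.60 and 0.39. CYT1, GDP-mannose pyrophosphorylase, and VTC4, L-galactose 1-phosphate phosphatase, both of ascorbate synthesis, had shoot L values of -0.71 and -0.59 in Col-0.

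Of 5 members in amino acid synthesis, 3 were at a shoot L between -0.67 and -0.85 in Col-0, namely ATMS1, a methionine synthase, MTO2, threonine synthase, and TSB1, the tryptophan synthase beta subunit. PGDH, an enzyme of serine synthesis, had -1.48 in Col-0 and, in the mutants, -0.63 (hy5) and -1.20 (phyAB). PAI1 had -0.56, -0.55 and -0.64, but PAI2 and PAI3 are near-identical copies. Reads that map to more than 1 of them may have been left out of the counts, so its value is uncertain. PGDH overlaps 2 other counted genes on the opposite strand, both with mean levels below 1 CPM.

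Cell wall genes contributed 6 members, with median shoot L of -1.14 in Col-0 and, in the mutants, -1.17 (hy5) and -0.87 (phyAB). RHM1 makes UDP-rhamnose, a building block of pectin. Shoot levels of RHM1 in Col-0 were 193, 217 and 143 CPM at 21 °C and 69.4, 50.9 and 53.5 CPM at 27 °C. In hy5 shoots RHM1 was at 199, 190.4 and 205 CPM at 21 °C and 82.8, 67.7 and 69.96 CPM at 27 °C. The phyAB shoots held RHM1 at 202, 204 and 201 CPM at 21 °C and 93.9, 84.1 and 98.9 CPM at 27 °C. Shoots of the 3 genotypes were alike at 21 °C apart from a lower Col-0 replicate 3, and the Col-0 shoots at 27 °C were the lowest on average. In Col-0 roots RHM1 was at 589, 547 and 485 CPM at 21 °C and 494, 527 and 507 CPM at 27 °C. The hy5 roots gave RHM1 at 256, 249 and 249.9 CPM at 21 °C and 315, 265 and 279 CPM at 27 °C. For RHM1 the phyAB roots gave 269, 242 and 286 CPM at 21 °C and 289, 290.4 and 294 CPM at 27 °C. Roots of Col-0 held more RHM1 than either mutant at both temperatures, with no overlap. For RHM1 L was -1.65 in Col-0 and, in the mutants, -1.42 (hy5) and -1.13 (phyAB), all in shoots.

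FLA15 is a fasciclin-like arabinogalactan protein of the cell surface. FLA15 was counted in Col-0 shoots at 35.4, 40.3 and 31.1 CPM at 21 °C and 12.5, 10.3 and 10.8 CPM at 27 °C. For FLA15 the hy5 shoots gave 29.3, 26.8 and 34.2 CPM at 21 °C and 10.2, 8.28 and 9.82 CPM at 27 °C. Levels of FLA15 in phyAB shoots were 27.4, 26.3 and 27.5 CPM at 21 °C and 12.9, 11.9 and 14.2 CPM at 27 °C. Its shoot libraries separated fully by temperature in each genotype. Root levels of FLA15 in Col-0 were 122, 118 and 127 CPM at 21 °C and 125, 102 and 111 CPM at 27 °C. For FLA15 the hy5 roots had 50.8, 47.03 and 54.05 CPM at 21 °C and 54.02, 49.3 and 50.5 CPM at 27 °C. Levels of FLA15 in phyAB roots were 51.8, 44.5 and 49.1 CPM at 21 °C and 52.6, 45.5 and 52.2 CPM at 27 °C. Col-0 roots again lay above the roots of both mutants. GH9B8 belongs to the endo-1,4-beta-glucanase family. In Col-0 shoots GH9B8 stood at 12.9, 13.4 and 11.2 CPM at 21 °C and 4.87, 3.57 and 4.07 CPM at 27 °C. The hy5 shoots had GH9B8 at 11.9, 9.17 and 10.4 CPM at 21 °C and 3.57, 3.31 and 3.7 CPM at 27 °C. In phyAB shoots GH9B8 stood at 23.2, 20.2 and 16.4 CPM at 21 °C and 10.08, 10.14 and 10.4 CPM at 27 °C. The phyAB shoots at 21 °C were above all other shoots. Col-0 roots had GH9B8 at 46.4, 44.99 and 42.6 CPM at 21 °C and 60.8, 43.1 and 38.2 CPM at 27 °C. In hy5 roots GH9B8 stood at 38.9, 42.8 and 37.5 CPM at 21 °C and 51.8, 44.3 and 46.4 CPM at 27 °C. In phyAB roots GH9B8 was at 33.9, 27.7 and 28.4 CPM at 21 °C and 36.02, 26.6 and 30.03 CPM at 27 °C. Its root libraries overlapped between temperatures in Col-0 and phyAB, and in hy5 all 3 at 27 °C lay above all 3 at 21 °C. For GH9B8 L was -1.38 in Col-0 and, in the mutants, -1.35 (hy5) and -0.90 (phyAB), all in shoots. EXPA9, an expansin that loosens walls, had -0.88, -0.83 and -0.56.

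FER3, a plastid ferritin that stores iron, was the one member on the 13 pathway lists. Shoot levels of FER3 in Col-0 were 160.0, 177 and 158 CPM at 21 °C and 78.6, 82.00 and 89.9 CPM at 27 °C. In hy5 shoots FER3 was at 157, 171 and 215 CPM at 21 °C and 87.3, 97.2 and 110.3 CPM at 27 °C. The phyAB shoots held FER3 at 81.7, 64.4 and 88.8 CPM at 21 °C and 23.5, 30.3 and 33.99 CPM at 27 °C. The phyAB shoots at 21 °C overlapped in level with the Col-0 shoots at 27 °C, and the phyAB shoots at 27 °C were the lowest of all. In Col-0 roots FER3 was at 89.7, 101 and 92.3 CPM at 21 °C and 76.7, 105 and 89.4 CPM at 27 °C. The hy5 roots gave FER3 at 74.1, 75.95 and 90.2 CPM at 21 °C and 63.5, 70.5 and 76.2 CPM at 27 °C. For FER3 the phyAB roots gave 59.1, 52.5 and 59.01 CPM at 21 °C and 51.7, 48.5 and 50.9 CPM at 27 °C. In phyAB roots the libraries at 27 °C were thus also the lower ones without overlap. By edgeR, log2 fold changes of FER3 in roots were -0.14 in Col-0 and, in the mutants, -0.26 (hy5) and -0.22 (phyAB), negative in each genotype. In Col-0 and hy5 roots its libraries at the 2 temperatures overlapped. The selection used root differences, so these root values carry no test. Among the 8 other genes of the ferritin and superoxide dismutase list, 7 were tested, and in Col-0 shoots 3 were lower and 2 higher at 27 °C (edgeR quasi-likelihood, adjusted p under 0.05, where 23.2% of genes were lower and 22.5% higher). In hy5 shoots 1 was lower and 3 higher (background 22.5% and 23.1%), and in phyAB shoots 4 were lower and 1 higher (background 22.1% and 21.3%). FER1 had log2 fold changes of -0.76 (SE 0.21, adjusted p = 0.0057) in Col-0 shoots and -1.11 (SE 0.21, adjusted p = 0.000355) in phyAB shoots, and -0.32 (SE 0.21, adjusted p = 0.226) in hy5 shoots. In roots FER1 had -0.07 (adjusted p = 0.694) in Col-0, 0.21 (adjusted p = 0.188) in hy5 and -0.36 (adjusted p = 0.0362) in phyAB. FER4, another ferritin gene of the list, had 0.09 (adjusted p = 0.585) in Col-0 shoots and 0.37 (adjusted p = 0.0206) in hy5 shoots. In phyAB shoots FER4 had -0.44 (adjusted p = 0.01015). The other 12 pathway lists, among them cold response, jasmonate, glucosinolate and flavonoid genes, held none of the 80.

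AT4G21215, an uncharacterised protein, was rank 2. AT4G21215 was counted in Col-0 shoots at 10.4, 15.1 and 13.2 CPM at 21 °C and 3.22, 3.18 and 5.27 CPM at 27 °C. For AT4G21215 the hy5 shoots gave 11.7, 14.5 and 16.9 CPM at 21 °C and 4.68, 5.83 and 6.87 CPM at 27 °C. Levels of AT4G21215 in phyAB shoots were 9.01, 8.95 and 11.1 CPM at 21 °C and 3.81, 3.64 and 3.85 CPM at 27 °C. Shoots at 27 °C were below those at 21 °C in every genotype. Root levels of AT4G21215 in Col-0 were 17.6, 16.4 and 20.3 CPM at 21 °C and 18.5, 19.1 and 18.03 CPM at 27 °C. For AT4G21215 the hy5 roots had 24.9, 23.1 and 22.9 CPM at 21 °C and 28.8, 28.7 and 24.4 CPM at 27 °C. Levels of AT4G21215 in phyAB roots were 28.5, 24.7 and 23.2 CPM at 21 °C and 27.2, 27.1 and 27.8 CPM at 27 °C. The class III peroxidase gene AT2G38390 was rank 10. In Col-0 shoots AT2G38390 stood at 60.8, 49.6 and 60.3 CPM at 21 °C and 23.7, 31.2 and 36.9 CPM at 27 °C. The hy5 shoots had AT2G38390 at 49.2, 28.3 and 50.1 CPM at 21 °C and 14.96, 18.3 and 24.1 CPM at 27 °C. In phyAB shoots AT2G38390 stood at 11.5, 9.62 and 10.6 CPM at 21 °C and 5.35, 3.23 and 6.96 CPM at 27 °C. Its phyAB shoot libraries were below every shoot library of the other genotypes. Col-0 roots had AT2G38390 at 168, 234 and 185 CPM at 21 °C and 257, 126 and 164 CPM at 27 °C. In hy5 roots AT2G38390 stood at 178, 211 and 163 CPM at 21 °C and 162, 233 and 188 CPM at 27 °C. In phyAB roots AT2G38390 was at 61.1, 70.2 and 50.98 CPM at 21 °C and 66.9, 59.8 and 63.98 CPM at 27 °C. Roots at the 2 temperatures overlapped in all genotypes, and phyAB roots were the lowest.

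**Figure D3:**
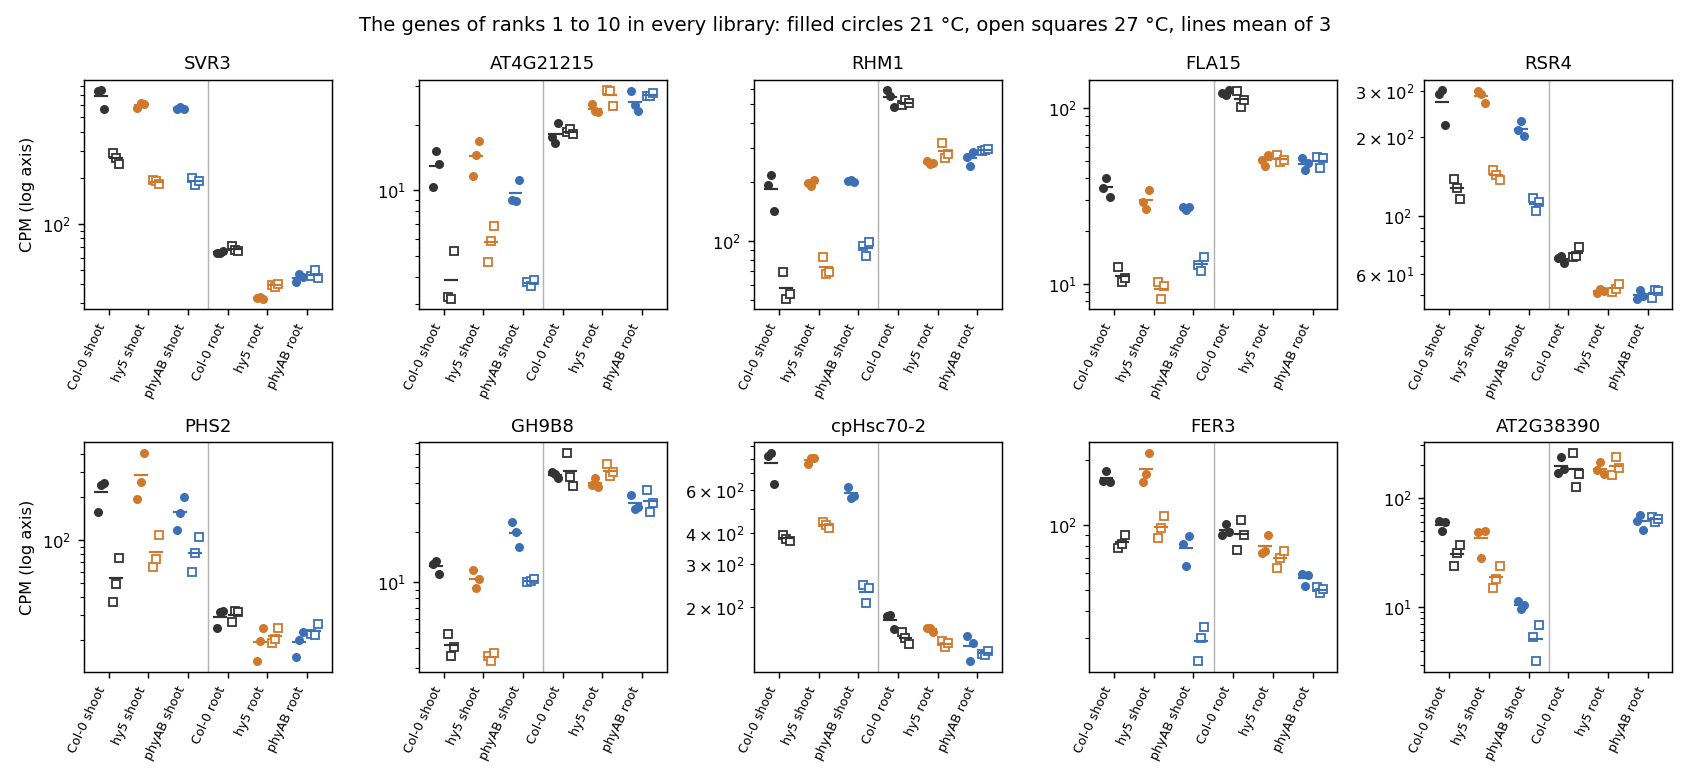
CPM (log axis) of the genes of ranks 1 to 10 in each library, in shoots to the left of the grey line and roots to the right, for Col-0 (black), hy5 (orange) and phyAB (blue), with filled circles at 21 °C, open squares at 27 °C and a line at each mean of 3. In shoots the open squares lie below the filled circles of the same genotype for all 10 genes, for example 268 against 750.1 CPM for SVR3 in Col-0 replicate 2, and in roots the pairs lie close together.

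The organ in which these genes were more abundant was examined by comparing Col-0 shoots with Col-0 roots at 21 °C, which the selection did not contrast, although it used the same libraries. Of the 80 genes, 47 were higher in shoots and 21 lower (edgeR quasi-likelihood, adjusted p under 0.05 over 21598 genes), against 38.1% and 40.5% of all genes tested. The median log2 difference was 0.70, and -0.04 over all genes. These differences are on the scale of edgeR's TMM factors, which place shoots 0.76 log2 units higher against roots than CPM does. In a fit added after the values were seen, with library size alone and so on the CPM scale, 33 members were higher and 37 lower, against 21.6% and 68.1% of all genes, with medians of -0.06 for the members and -0.81 for all genes. Of the 47 genes called higher, 33 were then called higher, 10 were not called and 4 were called lower, namely MTO2, TSB1, AT2G31010 and AT5G38220, whereas all 21 genes called lower were called lower again. The values below are TMM-scaled. All 11 genes of the chloroplast group were higher in shoots (10 by library size, all but LCD1), led by NTRC at 4.48, PPD5, a PsbP-domain protein, at 4.44, and SVR3 at 4.16. Of the starch and sugar phosphate genes, PGM at 3.77, PHS2 at 3.66 and APL3 at 2.54 were higher in shoots on both scales. TPS5, at 0.68, was called higher with TMM and not by library size (-0.09), and its mean CPM was 53.7 in shoots and 56.9 in roots. Of the cell wall genes 5 of 6 were lower in shoots, with EXPA9 at -2.22, GH9B8 at -1.08, FLA15 at -1.02, RHM1 at -0.79 and XGD1, which makes xylogalacturonan, at -0.58. The strongest root preference was that of CYP705A5, a cytochrome P450 of the root triterpene thalianol pathway, at -4.73. The set therefore held genes with the higher level in either organ. Shoot marker genes in Col-0 roots reached 0.362% of their level in shoots at 21 °C and 0.756% at 27 °C. In hy5 the shares were 0.0567% and 0.154%, and in phyAB 0.201% and 0.395%, so they were higher at 27 °C in every genotype. The part of this in the root levels of the members was not tested.

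**Figure D4:**
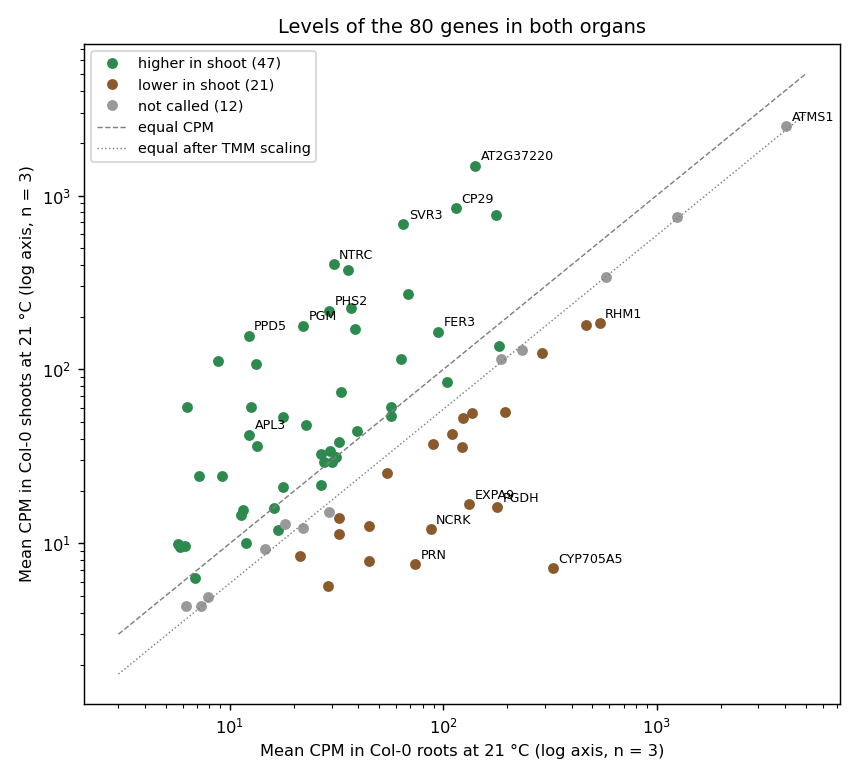
Mean CPM of each of the 80 genes in Col-0 roots (x axis, log) and Col-0 shoots (y axis, log) at 21 °C, n = 3 each, coloured by the call of the organ difference, with a dashed line of equal CPM and a dotted line of equal level after TMM scaling, 0.76 log2 units lower. The 47 genes called higher in shoots lie above the dotted line, some of them between the lines, and the 21 called lower lie below it, with CYP705A5 farthest from it.

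Mutants were compared with Col-0 within each organ and temperature, a contrast that the selection did not use, although it read the same libraries. In phyAB shoots at 21 °C, 43 members were lower than in Col-0 and 6 higher, against 20.2% and 18% of the 20100 genes tested, and the median log2 difference was -0.33 (-0.01 over all genes). Without replicate 2 of every group, 29 members passed in place of 49. By library size alone, a scaling that moved the median of all genes by 0.16 log2 units to 0.15, 27 members were lower and 11 higher, against 9.68% and 34.9%, and the members' median was -0.17. Among the 6983 other genes that met the CPM and root conditions, 19.3% were lower. At 27 °C, 28 members were lower and 10 higher in phyAB shoots (23.7% and 18.8% of all genes), and by library size 20 and 18 (13.5% and 34.1%), where the members' median turned from -0.13 to 0.03 beside 0.14 over all genes. Of the 11 genes of the chloroplast group 10 were lower in phyAB shoots at each temperature, all but LCD1 (by library size 7 at 21 °C and 10 at 27 °C), for example NTRC at -0.49 (SE 0.06, adjusted p = 2.9e-06) at 21 °C and -0.87 (SE 0.06, adjusted p = 2.8e-09) at 27 °C. The shoot marker genes were also lower there, at 77905 to 80409 CPM in phyAB against 89329 to 96673 CPM in Col-0 at 21 °C, while root markers were at 116 to 124 against 75.5 to 82.1 CPM and seed storage genes at 339.9 to 2372 against 0.932 to 1.95 CPM. The part of these in the member differences was not tested, and in bulk shoots fewer cells of a type and less RNA per cell cannot be told apart.

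The 3 members that differed most from Col-0 in phyAB shoots at 21 °C were AT2G38390, BT4 and FER3. AT2G38390 was lower, with a log2 difference of -2.59 (SE 0.23, adjusted p = 1.69e-07) in shoots and -1.72 (SE 0.20, adjusted p = 2.14e-06) in roots. BT4, a BTB and TAZ domain protein, was lower, at -1.37 (SE 0.19, adjusted p = 1.71e-05) in shoots and -0.92 (SE 0.09, adjusted p = 1.29e-07) in roots; it overlaps another counted gene by 18 bases. Shoot levels of BT4 in Col-0 were 31.8, 32.97 and 29.4 CPM at 21 °C and 7.46, 12.2 and 14.8 CPM at 27 °C. In hy5 shoots BT4 was at 34.7, 36.7 and 38.9 CPM at 21 °C and 14.8, 16.1 and 20.8 CPM at 27 °C. The phyAB shoots held BT4 at 10.4, 14.2 and 16.3 CPM at 21 °C and 6.12, 7.77 and 10.07 CPM at 27 °C. In Col-0 and hy5 its shoots at 21 °C lay above all phyAB shoots. In Col-0 roots BT4 was at 30.6, 31.99 and 31.4 CPM at 21 °C and 24.1, 28.2 and 27.9 CPM at 27 °C. The hy5 roots gave BT4 at 20.7, 22.8 and 27.1 CPM at 21 °C and 24.4, 23.6 and 24.4 CPM at 27 °C. For BT4 the phyAB roots gave 16.5, 17.3 and 17.2 CPM at 21 °C and 18.8, 20.3 and 20.2 CPM at 27 °C. FER3 was lower, at -1.24 (SE 0.13, adjusted p = 1.39e-06) in shoots and -0.77 (SE 0.10, adjusted p = 7.93e-06) in roots. Higher in phyAB shoots were MAPKKK13, a MAP kinase kinase kinase, GH9B8, the alternative oxidase AOX1A, PGDH, the plasma membrane proton pump HA11 and the ABC transporter ABCC3. Of these 6 calls, 2 held in all 15 alternative settings. HA11 overlaps GTR2, another member, by 73 bases on the opposite strand, so that reads there may have been set aside as ambiguous and counted for neither gene. For GH9B8 the differences were 0.51 (SE 0.12, adjusted p = 0.00261) in shoots and -0.61 (SE 0.14, adjusted p = 0.00182) in roots.

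In hy5 shoots at 21 °C, 7 members were lower and 12 higher, against 8.94% and 8.99% of 20100 genes, and at 27 °C 6 were lower and 10 higher, against 6.06% and 6.18%. Shoot libraries at 27 °C with the same replicate number deviated together, and the fit with the replicate number as a block gave 29 members at 27 °C, 9 lower and 20 higher. The count at 21 °C was 8 members without replicate 2 of every group and 12 without hy5 replicate 3, and at 27 °C it was 7 without replicate 2 and 10 without replicate 1. The 3 members with the largest difference at 21 °C were CYP705A5, NCRK and PRXR1. CYP705A5 was higher in hy5, at 1.09 (SE 0.34, adjusted p = 0.0346) in shoots and 0.82 (SE 0.11, adjusted p = 1.01e-05) in roots. Its call in shoots was lost in 9 of 15 alternatives, with an adjusted p of up to 0.219. CYP705A5 was counted in Col-0 shoots at 8.46, 4.66 and 8.51 CPM at 21 °C and 4.29, 4.4 and 2.4 CPM at 27 °C. For CYP705A5 the hy5 shoots gave 16.9, 13.1 and 15.9 CPM at 21 °C and 5.98, 12.1 and 8.72 CPM at 27 °C. Levels of CYP705A5 in phyAB shoots were 13.6, 8.57 and 6.13 CPM at 21 °C and 9.3, 3.82 and 3.22 CPM at 27 °C. The hy5 shoots at 21 °C lay above all Col-0 shoots. Root levels of CYP705A5 in Col-0 were 344, 299.6 and 338 CPM at 21 °C and 328, 281 and 325 CPM at 27 °C. For CYP705A5 the hy5 roots had 653, 539.7 and 504 CPM at 21 °C and 672, 546 and 559.8 CPM at 27 °C. Levels of CYP705A5 in phyAB roots were 445, 433 and 377 CPM at 21 °C and 403, 374 and 459 CPM at 27 °C. Its roots held far more than its shoots in every library.

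NCRK, a receptor-like kinase, was lower in hy5, at -0.85 (SE 0.12, adjusted p = 0.000196) in shoots and -1.18 (SE 0.07, adjusted p = 1.74e-10) in roots. In Col-0 shoots NCRK stood at 12.7, 12.4 and 11.03 CPM at 21 °C and 6.97, 7.04 and 6.83 CPM at 27 °C. The hy5 shoots had NCRK at 6.32, 5.94 and 7.43 CPM at 21 °C and 2.41, 3.95 and 3.99 CPM at 27 °C. In phyAB shoots NCRK stood at 9.63, 9.86 and 10.3 CPM at 21 °C and 5.45, 6.14 and 5.87 CPM at 27 °C. All hy5 shoots at 21 °C lay below all Col-0 and phyAB shoots at that temperature. Col-0 roots had NCRK at 89.05, 88.4 and 84.4 CPM at 21 °C and 94.9, 77.97 and 84.6 CPM at 27 °C. In hy5 roots NCRK stood at 36.4, 40.4 and 36.7 CPM at 21 °C and 38.9, 40.9 and 38.7 CPM at 27 °C. In phyAB roots NCRK was at 44.6, 42.04 and 41.4 CPM at 21 °C and 40.5, 39.3 and 44.5 CPM at 27 °C. Roots of both mutants lay below all Col-0 roots. PRXR1, a peroxidase, was lower in hy5, at -0.71 (SE 0.15, adjusted p = 0.00341) in shoots and -0.20 (SE 0.07, adjusted p = 0.0241) in roots. Shoot levels of PRXR1 in Col-0 were 644, 756 and 872 CPM at 21 °C and 400.3, 337 and 419 CPM at 27 °C. In hy5 shoots PRXR1 was at 439.5, 398 and 543 CPM at 21 °C and 259.6, 279 and 389 CPM at 27 °C. The phyAB shoots held PRXR1 at 622, 747 and 784 CPM at 21 °C and 433, 455 and 507 CPM at 27 °C. Each hy5 shoot library at 21 °C lay below each Col-0 and phyAB one at 21 °C. In Col-0 roots PRXR1 was at 1156, 1281 and 1307 CPM at 21 °C and 1439, 1314 and 1468 CPM at 27 °C. The hy5 roots gave PRXR1 at 1015, 1126 and 1048 CPM at 21 °C and 1143, 1343 and 1337 CPM at 27 °C. For PRXR1 the phyAB roots gave 1154, 1219 and 1167 CPM at 21 °C and 1231, 1270.1 and 1233 CPM at 27 °C. Its shoot call was lost in 1 of 15 alternatives and its root call in 6. Higher in hy5 shoots were also MTO2, at 0.49, PRH75, a nucleolar DEAD-box RNA helicase, at 0.35, and ATMS1, at 0.30.

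In roots, where the selection required little difference with temperature, many members were lower in the mutants. In hy5 roots at 21 °C, 37 members were lower and 4 higher (18.4% and 16.7% of 20355 genes), and at 27 °C 28 were lower and 4 higher (17.4% and 16%). In phyAB roots 48 were lower and 3 higher at 21 °C (17.9% and 17.2%), and 39 lower and 5 higher at 27 °C (16.6% and 14.6%). Among the 6983 other genes that met the conditions, 15.3% were lower in hy5 roots at 21 °C and 16.6% in phyAB roots. The median log2 difference of the members at 21 °C was -0.20 in hy5 and -0.35 in phyAB, and 0.01 and 0.00 over all genes. RHM1 was lower, at -1.07 (SE 0.08, adjusted p = 3.26e-09) in hy5 and -1.06 (SE 0.08, adjusted p = 7.43e-09) in phyAB roots, and FLA15 -1.24 (SE 0.08, adjusted p = 1.11e-09) and -1.37 (SE 0.08, adjusted p = 8.78e-10). MAPKKK13 was lower, at -1.91 (SE 0.16, adjusted p = 2.97e-08) in hy5 and -1.86 (SE 0.17, adjusted p = 8.05e-08) in phyAB roots. Of the 11 genes of the chloroplast group 7 were lower in hy5 roots and 9 in phyAB roots at 21 °C, and LCD1 was higher in both. Shoot marker genes were lower in the roots of the mutants too, at 44.4 to 55.3 CPM in hy5 and 127 to 210.4 in phyAB against 295 to 359.7 in Col-0 at 21 °C, and their part in the member differences was not tested. Both mutant comparisons share the Col-0 libraries, so that their counts are not independent.

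**Figure D5:**
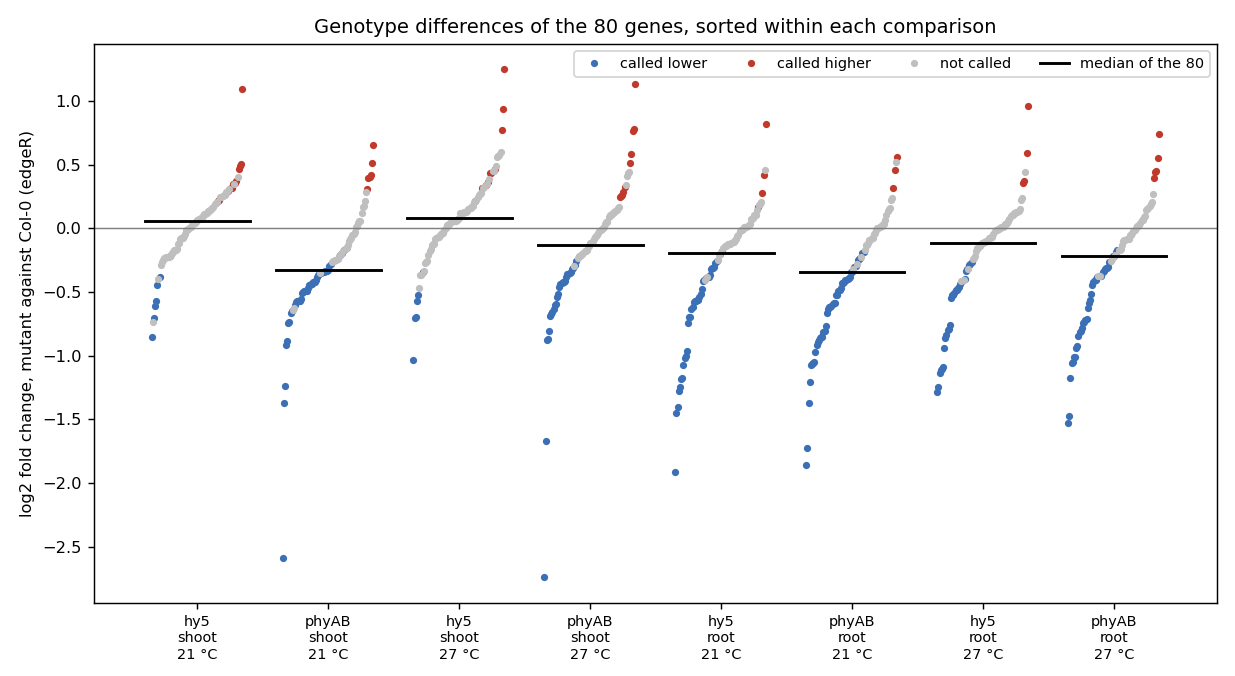
Log2 fold change of each of the 80 genes in hy5 or phyAB against Col-0 (y axis, edgeR), sorted within each of 8 comparisons, with calls at adjusted p under 0.05 in blue (lower) and red (higher) and a black bar at the median of the 80. Medians lie at 0.05 and 0.08 in hy5 shoots, at -0.33 and -0.13 in phyAB shoots and between -0.12 and -0.35 in roots.

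Whether a mutant changed these genes differently in the 2 organs was tested as an interaction at 21 °C in 1 fit to all 36 libraries. For hy5 the difference between organs passed for 33 members, in all of which the shoot effect was above the root effect, against 12.6% of 21598 genes with a higher and 7.11% with a lower shoot effect. For phyAB it passed for 28 members, 18 with a higher and 10 with a lower shoot effect, against 14.5% and 7.54%. MAPKKK13 was the largest for both, at 2.2 and 2.54. The chloroplast genes AT2G37220 and CP29 had 1.18 and 1.04 for hy5. Without replicate 2 the phyAB count was 15, of which 14 had the higher and 1 the lower shoot effect, so that 1 member in place of 10 was called with a lower one. Without phyAB root replicate 3, whose labels conflict, the count was 27, with 10 lower. By library size, 25 members had the higher and 6 the lower shoot effect for phyAB, against 20.7% and 4.69%. With library size or RLE scaling, 1 of 28 members called for hy5 had the lower shoot effect (8.02% lower and 10.9% higher over all genes by library size), and without replicate 3 of every group 1 of 26.

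Promoter sequence was read for the 250 bases before each annotated gene start in the RefSeq copy of TAIR10.1. The files hold no coordinates, and the submitters' processing notes name TAIR10. A total of 9 motifs was counted on both strands, and shares were set beside all 27444 protein-coding genes and the 14233 that met the CPM minimum. The evening element, AAATATCT, a sequence bound by clock transcription factors of the MYB-related class, was present for 11 of 80 members (13.8%), against 4.79% of all and 4.81% of expressed genes. It was singled out after the counts of all 9 were seen. The G-box CACGTG, bound by HY5 and other factors, was present for 6 members (7.5%), against 6.49% of all and 7.61% of expressed genes. The cold-linked CRT/DRE element (ACCGAC or GCCGAC) was present for 8 (10%), against 7.09% and 8.23%. The W-box (TTGACC or TTGACT) was at 21.2% against 28.4% and 27.5%, and the telobox AAACCCTA at 1.25% against 4.49% and 3.61%. The GCC-box was at 0 of 80 against 1.87% and 1.93%. Site II (TGGGCC) stood at 13.8%, against 13.7% of all and 18.9% of expressed genes. ABRE (ACGTGTC) was at 5.0% against 3.68% and 4.33%, and the AC element (ACCTACC or ACCAACC) at 3.75% against 3.79% and 3.87%. The members with the evening element were FER3, PDX2, AT4G30660, CCR1, MTO2, PRH75, CP29, AT2G40400, AT5G58900, PGM and XGD1.

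The sequences of 5 of these promoters are shown because they hold the motif in genes described above or more than once; each is the 250 bases before the gene start, 5′ to 3′ on the gene's strand, with the evening element, or its reverse complement AGATATTT, in capitals.
MTO2, chr4:14601165-14601414, minus strand: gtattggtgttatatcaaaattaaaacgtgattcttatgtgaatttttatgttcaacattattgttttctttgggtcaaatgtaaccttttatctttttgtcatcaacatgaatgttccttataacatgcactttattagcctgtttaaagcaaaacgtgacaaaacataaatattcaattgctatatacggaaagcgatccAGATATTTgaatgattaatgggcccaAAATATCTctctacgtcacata
PRH75, chr5:24984045-24984294, minus strand: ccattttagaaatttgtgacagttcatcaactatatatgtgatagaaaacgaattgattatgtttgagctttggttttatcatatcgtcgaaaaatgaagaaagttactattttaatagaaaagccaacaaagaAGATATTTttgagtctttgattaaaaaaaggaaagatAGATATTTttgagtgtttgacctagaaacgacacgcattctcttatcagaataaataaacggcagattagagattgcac
CP29, chr3:19821520-19821769, minus strand: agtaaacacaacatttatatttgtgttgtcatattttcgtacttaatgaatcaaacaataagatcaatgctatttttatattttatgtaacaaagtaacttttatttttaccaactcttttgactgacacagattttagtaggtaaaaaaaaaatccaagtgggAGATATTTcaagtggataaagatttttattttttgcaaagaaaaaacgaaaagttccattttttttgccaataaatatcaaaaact
PGM, chr5:21068328-21068577, minus strand: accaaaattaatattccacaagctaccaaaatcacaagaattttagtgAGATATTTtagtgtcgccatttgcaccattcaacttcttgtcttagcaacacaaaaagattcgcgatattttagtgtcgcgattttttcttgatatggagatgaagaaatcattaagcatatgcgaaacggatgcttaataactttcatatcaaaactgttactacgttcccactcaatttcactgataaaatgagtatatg
FER3, chr3:20816036-20816285, minus strand: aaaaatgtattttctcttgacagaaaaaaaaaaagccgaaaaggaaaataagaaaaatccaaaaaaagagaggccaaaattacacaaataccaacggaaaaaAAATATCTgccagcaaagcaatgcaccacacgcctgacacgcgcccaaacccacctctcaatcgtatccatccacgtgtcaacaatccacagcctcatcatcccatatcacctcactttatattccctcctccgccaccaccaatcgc
MTO2 and PRH75 held the motif at 2 places each, and CP29, PGM and FER3 held it once. A match is a run of letters and is not shown to be a bound site.

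The 80 genes were spread over all 5 chromosomes, with 27 on chromosome 5 (33.8%, against 23.6% of the genes above the CPM minimum), 20 on chromosome 2 (25% against 15.1%), 13 on chromosome 4 (16.2% against 15.2%), 11 on chromosome 1 (13.8% against 25.9%) and 9 on chromosome 3 (11.2% against 20.2%). Their median gene length was 2616 bases, and that of expressed genes was 2605. Of the members 18 overlap another counted gene, in 13 cases one with at least 1 CPM on average, and in 2 cases, BT4 and GTR2, one with the higher mean CPM. Reads set aside as ambiguous made up 0.186% to 0.299% of reads in roots and 0.0566% to 0.093% in shoots. The counting is not stated to use strand, so that the reads lost from overlapping genes are not known.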

How the data were processed

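RNA was measured in 36 libraries (3 per group) made with the TruSeq stranded mRNA kit and read as single 50-base reads, per the labels' protocols. The deposited files hold raw read counts per gene. The submitters' processing notes name FastQC, TopHat2, HTSeq, edgeR and the TAIR10 build, but give no versions or strand setting. The 5 summary rows of each file were left out of totals. Gene names and coordinates came from RefSeq TAIR10.1 and matched 32548 of 32833 genes.

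CPM and L were computed as given in the report. Genotype and organ differences were tested with edgeR 4.0.16 (R 4.3.3), TMM scaling, filterByExpr, one model per organ (20100 and 20355 genes) or for both (21598), the quasi-likelihood test and Benjamini-Hochberg adjustment over all genes at 0.05. The script was tested on simulated data. All 80 members passed the filter. Each SE of a log2 difference is the absolute difference divided by the square root of the F value of its test. Such an SE is not reliable for differences near 0. DESeq2 1.42.0 was an alternative. The interaction test, and a fit scaled by library size alone, were added after the values were seen.

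The members, lists, families, role groups and motifs were chosen with earlier results of these data known. Values in every library are given for ranks 1 to 10 and for the 3 called members with the largest difference in each mutant's shoots at 21 °C; other members are named by role or list. Replicate numbers pair samples by the rule that all 3 correlations of deviations exceed 0.1 for hy5 and Col-0 shoots at 27 °C (0.36, 0.17 and 0.46), for phyAB and Col-0 shoots at 27 °C (0.38, 0.18 and 0.34) and for Col-0 shoots and roots at 21 °C (0.13, 0.18 and 0.28). No pair of replicates agreed within sampling noise, with chi-square per degree of freedom from 3.65 to 15.6.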

Additional observations from a re-analysis of the deposited data

Results flagged for a closer look

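The effect of a mutation at 21 °C differed between shoots and roots for several of the genes described in every library, by an interaction term in the edgeR fit to all 36 libraries (adjusted p under 0.05 over 21598 genes). Values are the log2 effect in shoots minus that in roots. For hy5 the difference was 1.23 (SE 0.16) for RHM1, 1.06 (SE 0.13) for FLA15, 0.84 (SE 0.11) for SVR3, 0.68 (SE 0.20) for BT4, 0.52 (SE 0.12) for RSR4 and 0.37 (SE 0.13) for NCRK. For phyAB it was 1.15 (SE 0.19) for GH9B8, 1.06 (SE 0.16) for RHM1, 0.84 (SE 0.13) for FLA15, 0.66 (SE 0.13) for NCRK and -1.01 (SE 0.20) for AT4G21215. In RHM1 and FLA15 both mutants were lower than Col-0 in roots, and GH9B8 was higher in phyAB shoots and lower in phyAB roots.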

How the results depend on the processing

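Counts of members called were compared under RLE scaling, library size alone, DESeq2, no filter on low counts, the 2 groups alone, the replicate block, and with each library or replicate number left out. For hy5 against Col-0 in shoots at 27 °C the replicate block gave 29 members in place of 16; it moved no other count by over 1.5 times, with 28 in place of 19 for hy5 shoots at 21 °C. Leave-outs gave 8 to 18 members for hy5 shoots at 21 °C, 29 to 47 for phyAB shoots at 21 °C and 7 to 18 for hy5 shoots at 27 °C; the lowest in each came without replicate 2. The cause was not tested. The interaction counts, checked under settings chosen after seeing the data, were 15 to 27 for phyAB and 22 to 26 for hy5 with libraries left out, and 15, with 1 in place of 10 lower, came without replicate 2. All other counts stayed within 1.5 times. No genotype call of a member reversed in any of 15 alternatives, and no interaction call in the 7 (hy5) or 8 (phyAB) run for it. Many calls were lost in at least 1 alternative, however. At 21 °C, 5 of 19 calls in hy5 shoots and 26 of 49 in phyAB shoots held in all of them. In roots at 21 °C, 31 of 41 (hy5) and 33 of 51 (phyAB) held. At 27 °C it was 5 of 16 and 25 of 38 in shoots, and 22 of 32 and 28 of 44 in roots. Between organs, 9 calls turned in sign by library size, a scaling added after seeing the data, 4 of them with a call in the other direction, and none turned in the other 14 alternatives. In the selection, 42 of 80 genes stayed with a root window of 0.2, 47 with 0.4 and 53 at a minimum of 10 CPM, and 56 to 76 under the other settings. Depth limits small differences of members at a few CPM.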
